A study of Bos taurus with 12 samples.

Results

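PRLR, GHR, LHCGR and AANAT were followed in the bovine endometrium, the lining of the uterus, in summer and in autumn. PRLR encodes the receptor for prolactin, GHR the receptor for growth hormone and LHCGR the receptor for luteinizing hormone and chorionic gonadotropin. AANAT encodes the enzyme that acetylates serotonin in the pathway to melatonin. The genes were found by name among the probes of the array, and where a gene had several probes, the brightest by mean signal was used. All 4 genes, of 6603 named on the array, had a probe, with 9 probes among 15208 non-control probes. The probes were chosen by that mean signal, which is given below as a description only. No adrenergic receptor was among the 4 genes, and the adrenergic receptors on the array are described after them.

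The 4 groups were summer and autumn biopsies of the uterine horn beside the corpus luteum (CL side), and summer and autumn biopsies of the opposite horn (non-CL side). The corpus luteum is the ovarian body that secretes progesterone. Each group held 3 samples from Japanese-Black cows, all at day 15 of the cycle and taken over consecutive years, and the labels give neither the year nor the age of an animal. Nothing in the labels ties each replicate to an animal of its own, so p-values measure the spread between these samples. A biopsy holds epithelium, stroma, vessels and leukocytes together, and fewer cells of a type cannot be told apart from less RNA per cell.

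Prolactin and growth hormone are pituitary hormones, and their receptors are single-pass cytokine receptors that signal through the kinase JAK2 and STAT5 factors. SOCS proteins, induced by this signal, dampen it. LHCGR is a G protein-coupled receptor that raises cyclic AMP through Gs, as beta-adrenergic receptors also do. AANAT converts serotonin to N-acetylserotonin, which ASMT then methylates to melatonin. Prolactin secretion in cattle follows day length and temperature, and pineal melatonin is made at night.

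Probes of 60 bases carried the measurements, and the sequences of those behind the results on PRLR and GHR show what was measured. The stretches shown here are the first 30 bases of the brightest probes of PRLR and GHR, the receptors with the widest spread between arrays, with nothing in capitals.
PRLR: tgggaagatggtagataggagagaaatgcc
GHR: aatcatgccatagcttttctttgatttcct
GHR also had 5 further probes, named in the files by separate GenBank records of bovine GHR transcripts. They are shown whole because several overlap and yet differ in their readings. Capitals mark the 15-base stretch AGGTCCTACAGGTAT, which 3 probes of the array hold, all of them GHR probes.
AF036294: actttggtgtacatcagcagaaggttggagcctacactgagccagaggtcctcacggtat
AF036295: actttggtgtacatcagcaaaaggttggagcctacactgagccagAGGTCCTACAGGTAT
AF036296: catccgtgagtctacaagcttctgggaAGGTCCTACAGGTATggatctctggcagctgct
AF326349: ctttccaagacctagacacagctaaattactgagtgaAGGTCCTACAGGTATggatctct
AF036297: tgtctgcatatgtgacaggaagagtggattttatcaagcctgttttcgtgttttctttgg
AF036294 and AF036295 carried the same base at 56 of 60 positions and differed at G20A, C53A, A54C and C55A, with the AF036294 base first and positions counted from 1 at the 5′ end. AF036296 and AF326349 shared a run of 25 bases. No probe of another gene shared 25 bases with a probe of the 4 genes.

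The 12 arrays had a 75th percentile of processed signal between 3516 and 4418, except CL-side summer replicate 2, at 2007. That array also correlated least with the others, at a median r of 0.928 over probes, while arrays other than it correlated at 0.972 or above. All summer arrays and replicate 1 of both autumn groups lay on slide 1, and replicates 2 and 3 of both autumn groups on slide 2. A value below is a signal divided by the 75th percentile of its array, given in percent or on the log2 scale. On the log2 scale no value was set below −7.28, a floor taken from the array whose dimmest detected probe was brightest. That array was CL-side summer replicate 2, and the lowest floor of the 12 arrays was −8.45.

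Detection set the 4 genes apart. GHR and AANAT stood clear of background on all 12 arrays, with mean log2 values of −2.70 and −2.42, higher than 50.2% and 52.2% of all probes. PRLR was well above background on 6 arrays and LHCGR on 4, and their means were higher than 22.8% and 17.0% of all probes. These are ranks of probe signals and do not set the levels of the genes against each other. PRLR, GHR and AANAT entered the tests, and LHCGR did not, because it was not well above background on all arrays of any group.

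**Figure D1:**
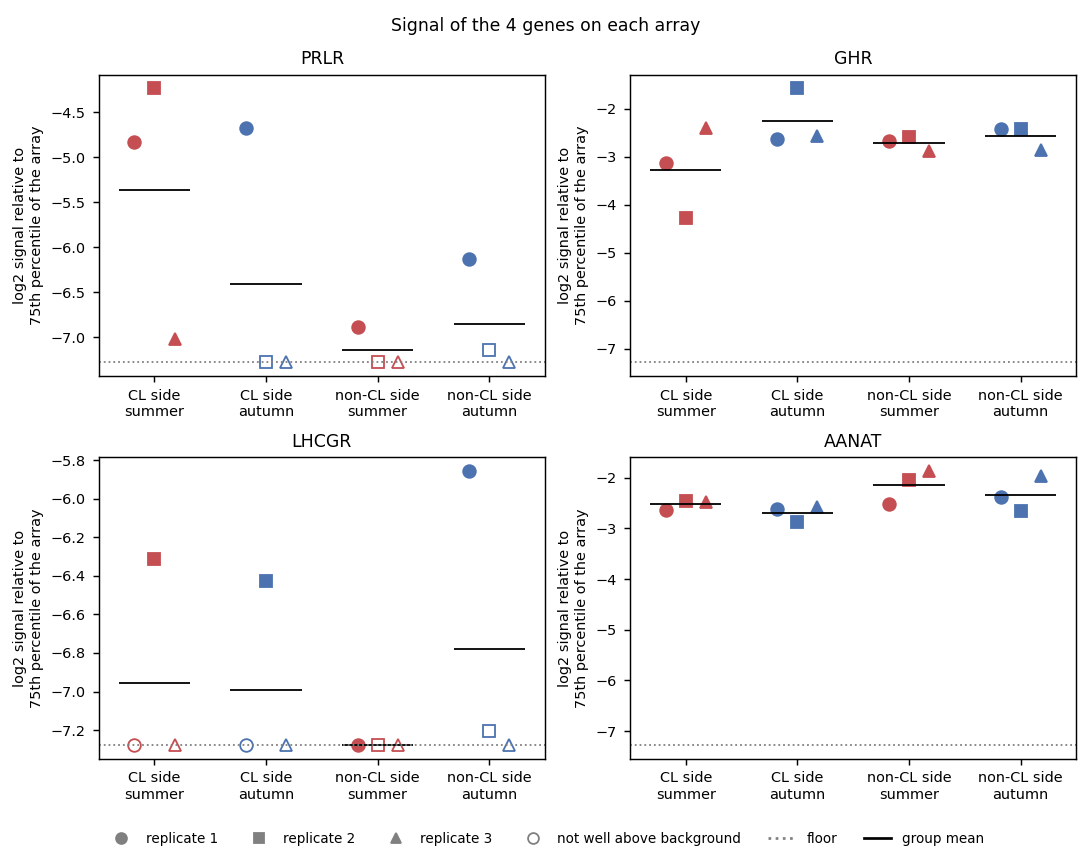
Log2 signal of PRLR, GHR, LHCGR and AANAT relative to the 75th percentile of the array (vertical axis), for each of the 12 arrays by group. Marker shape gives the replicate number, open markers were not well above background, bars are group means and the dotted line is the floor of −7.28. PRLR was well above background on all 3 CL-side summer arrays and on 1 of 3 in each other group, while GHR and AANAT were well above background on all 12.

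PRLR was detected most often in the summer endometrium of the CL side. Its signal was 3.52%, 5.31% and 0.773% of the 75th percentile in CL-side summer replicates 1 to 3, against 3.92%, 0.186% and 0.146% in CL-side autumn. All 3 CL-side summer arrays were well above background, against 1 of 3 in CL-side autumn, and the groups overlapped. On the non-CL side it was 0.848%, 0.212% and 0.540% in summer, against 1.43%, 0.708% and 0.303% in autumn, with 1 of 3 arrays well above background in each season. The 3 highest signals of the 12 arrays were CL-side summer replicates 2 and 1 and CL-side autumn replicate 1. Because PRLR passed the filter on dim probes through CL-side summer alone, a difference of that group from the others was built into its being tested.

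On the CL side, PRLR had a mean log2 value of −5.36 ± 1.47 in summer and −6.41 ± 1.50 in autumn (SD, n = 3 each). The season difference, summer minus autumn, was 1.05 ± 0.79 (SE) on the log2 scale, with an adjusted p of 0.610 by limma. Its 95% interval ran from −0.71 to 2.81. The value was −0.18 with slide as a block and −0.69 on slide 1 alone, which held 1 CL-side autumn array. Slide 2 held only autumn replicates 2 and 3, so slide and replicate number cannot be told apart here. The season difference was 0.16 with the authors' log2 values, 1.92 without CL-side autumn replicate 1 and 0.49 without CL-side summer replicate 2. On the non-CL side the season difference was −0.30 ± 0.79, −1.53 with slide as a block and −1.02 on slide 1 alone. Averaged over same-numbered horns, the season difference was 0.38 ± 0.61, and −0.85 with slide as a block.

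Between horns, PRLR was higher on the CL side in all 3 summer pairs. CL-side minus non-CL-side differences were 2.06, 3.04 and 0.26 in summer pairs 1 to 3, and 1.45, −0.13 and 0 in autumn pairs 1 to 3. Both horns lay at the floor in autumn pair 3, the CL-side horn in autumn pair 2 and the non-CL-side horn in summer pairs 2 and 3, so those differences depend on where the floor was set. The summer side difference was 1.79 ± 0.79, with an adjusted p of 0.984 by limma. It came from a fit that did not pair horns by number, and it compares the group through which PRLR passed the filter. It was 0.77 with the authors' log2 values, 0.97 with normexp background correction and 1.22 without CL-side summer replicate 2, against 2.26 with the lowest floor of the 12 arrays. The autumn side difference was 0.44 ± 0.79 and was −0.43 without CL-side autumn replicate 1. Over both seasons the side difference was 1.11 ± 0.56, with an adjusted p of 0.999 and a 95% interval of −0.13 to 2.36, and it was 0.61 with the authors' log2 values.

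GHR was measured on every array and was lowest in a single summer biopsy of the CL side. Its signal was 11.5%, 5.17% and 18.9% of the 75th percentile in CL-side summer replicates 1 to 3, against 16.1%, 33.6% and 16.8% in CL-side autumn. On the non-CL side it was 15.7%, 16.6% and 13.7% in summer, against 18.6%, 18.7% and 13.8% in autumn. The lowest value belonged to CL-side summer replicate 2, the array with the low 75th percentile, and the highest to CL-side autumn replicate 2. CL-side summer replicate 3 lay above CL-side autumn replicates 1 and 3, so the season groups of the CL side overlapped. The standard deviation of GHR over the 12 arrays was larger than that of 89.6% of the probes measured on all arrays.

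On the CL side GHR had a mean log2 value of −3.27 ± 0.94 in summer and −2.26 ± 0.60 in autumn (SD, n = 3 each). The season difference was −1.01 ± 0.43 (SE), a summer level 0.498 times that of autumn, with an unadjusted p of 0.0387 and an adjusted p of 0.498 by limma. It was −0.50 without CL-side summer replicate 2, −0.66 without CL-side autumn replicate 2, −0.89 with slide as a block and −0.63 on slide 1 alone. Leaving out 1 array at a time moved this difference between −1.44 and −0.50. On the non-CL side the season difference was −0.14 ± 0.43, with a 95% interval of −1.09 to 0.80. The season by side difference was −0.86 ± 0.60, with an adjusted p of 0.999, so the season difference was not shown to differ between the horns. Averaged over same-numbered horns, the season difference was −0.57 ± 0.27, with an adjusted p of 0.894.

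The side differences of GHR ran both ways. CL-side minus non-CL-side differences were −0.45, −1.68 and 0.47 in summer pairs 1 to 3, against −0.21, 0.85 and 0.29 in autumn pairs 1 to 3. The side difference was −0.55 ± 0.43 in summer and 0.31 ± 0.43 in autumn, and −0.12 ± 0.30 over both seasons. The fit behind these values did not pair horns by number. Leaving out 1 array at a time moved the summer value between −0.99 and −0.05, the latter without CL-side summer replicate 2.

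On the CL side, the season differences of the other GHR probes lay nearer 0 than that of the brightest one. There, summer minus autumn was 0.32 ± 0.43 for AF036294, −0.23 ± 0.37 for AF036295, −0.05 ± 0.28 for AF036296 and −0.16 ± 0.26 for AF326349. AF326349 was well above background on all 12 arrays, with 3.97% to 5.48% of the 75th percentile in CL-side summer and 4.20% to 6.96% in CL-side autumn. Its 95% interval of −0.73 to 0.41 overlapped that of the brightest probe, −1.95 to −0.06, and the difference between probes was not tested. In non-CL-side horns AF036294, AF036296 and AF326349 lay farther from 0 than the brightest probe, at 0.44, 0.44 and 0.23. AF036294 and AF036295 were well above background on 11 arrays and AF036296 on 9, all close to the floor. AF036297 was well above background on none of the 12 arrays, with processed signals at or below 0.904 intensity units.

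**Figure D2:**
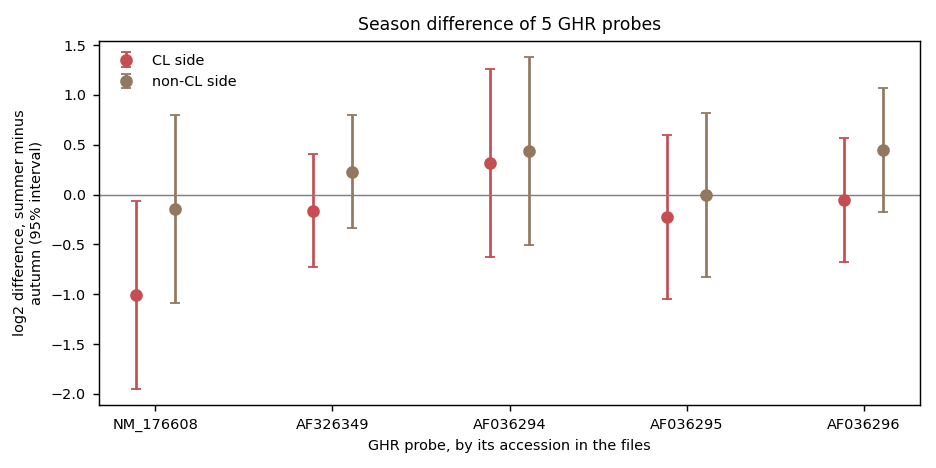
Log2 season difference, summer minus autumn, with its 95% interval, for 5 GHR probes (horizontal axis) in CL-side and non-CL-side horns. NM_176608, the brightest probe, lay at −1.01 on the CL side, and the other 4 probes lay between −0.23 and 0.32 there.

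Markers of the cell types in a biopsy differed along with GHR. All 10 stromal markers tested, among them COL1A1 and PDGFRA, had CL-side season differences below 0, with a median of −1.08, while 53% of all probes lay above 0, with a median of 0.02. No stromal marker passed the adjusted threshold and 8 passed an unadjusted p of 0.05, where 3.55% of all probes passed below 0. The mean log2 deviation of these 10 markers from their 12-array means ran from −1.38 to 0.21 in CL-side summer, against 0.36 to 0.76 in CL-side autumn. It was lowest on CL-side summer replicate 2 and highest on CL-side autumn replicate 2, the arrays with the lowest and the highest GHR signal. On the non-CL side it ran from −0.23 to 0.12 in summer, against −0.11 to 0.13 in autumn. Without CL-side summer replicate 2 the CL-side median was −0.67. The 12 epithelial markers, among them EPCAM and KRT8, had a CL-side median of 0.63 and a mean deviation of 0.94 on CL-side summer replicate 2, the array with the highest PRLR signal. On CL-side autumn replicate 1, the second highest for PRLR, it was −0.17. Over the 3 arrays of CL-side summer this deviation ran from −0.13 to 0.94, against −0.46 to −0.17 in CL-side autumn. The CL-side median of the epithelial markers was 0.43 without CL-side summer replicate 2. The mean deviation of the 6 smooth muscle markers, among them ACTA2 and DES, was 1.90 on CL-side summer replicate 2 and 2.02 on CL-side autumn replicate 1, and at most 1.12 elsewhere. All 6 had CL-side minus non-CL-side differences above 0 in summer and in autumn, and none passed either threshold. Their medians were 0.70 in summer and 0.71 in autumn, against −0.006 and −0.04 for all probes. Without CL-side summer replicate 2 the summer median was 0.02, with 3 of these markers above 0 and 3 below. In autumn their mean deviation was 2.02, −0.35 and −0.95 in CL-side replicates 1 to 3, against −1.04, 1.12 and −1.44 on the non-CL side. Autumn pair 2 thus ran the other way, as did summer pair 3, at −0.72 against −0.33. Each smooth muscle and epithelial marker was well above background on all 12 arrays, as were all stromal markers except OGN, on 11. The part of these cell types in the GHR and PRLR values was not tested.

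AANAT was the steadiest of the 3 genes tested, and its group mean was lower on the CL side in each season. Its signal was 16.1%, 18.3% and 18.1% of the 75th percentile in CL-side summer replicates 1 to 3, against 17.5%, 24.3% and 27.4% in non-CL-side summer. It was 16.3%, 13.7% and 16.8% in CL-side autumn, against 19.1%, 15.9% and 25.5% in non-CL-side autumn. Both pairs of groups overlapped, but every CL-side horn was lower than the horn of the same number. The CL-side minus non-CL-side differences were −0.11, −0.41 and −0.60 in summer pairs 1 to 3, and −0.23, −0.22 and −0.60 in autumn pairs 1 to 3. Of the 12272 probes with values on every array, 3.17% had all 6 pairs on the same side. The mean deviation of 7 leukocyte markers, among them CD3D and PTPRC, was higher on the CL side in all 6 pairs. It ran from 0.14 to 0.35 in CL-side summer, against −0.34 to 0.20 in non-CL-side summer, and from 0.01 to 0.17 in CL-side autumn, against −0.39 to −0.10 in non-CL-side autumn. All 7 had side differences over both seasons above 0, with a median of 0.30, against −0.02 for all probes. Of these 7 markers, 1 passed an unadjusted p of 0.05, as 1.66% of all probes did, and none passed the adjusted threshold. The part of leukocytes in the AANAT values was not tested.

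The side difference of AANAT over both seasons was −0.36 ± 0.15, a CL-side level 0.777 times that of the opposite horn. Its unadjusted p was 0.0356 and its adjusted p by limma was 0.999, so it did not pass the threshold. It was −0.38 ± 0.21 in summer and −0.35 ± 0.21 in autumn, in a fit that did not pair horns by number. With the replicate number as a block the SE was 0.16 in each season. The unadjusted p by limma was then 0.0493 in summer and 0.0614 in autumn, and the adjusted p 0.810 and 0.990. The season by side difference was −0.02 ± 0.30, with a 95% interval of −0.69 to 0.64. By season, the difference was 0.17 ± 0.21 on the CL side and 0.19 ± 0.21 on the non-CL side. The intervals were −0.30 to 0.64 and −0.28 to 0.66. With slide as a block the season differences were 0.16 and 0.18, and on slide 1 alone 0.10 and 0.24.

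**Figure D3:**
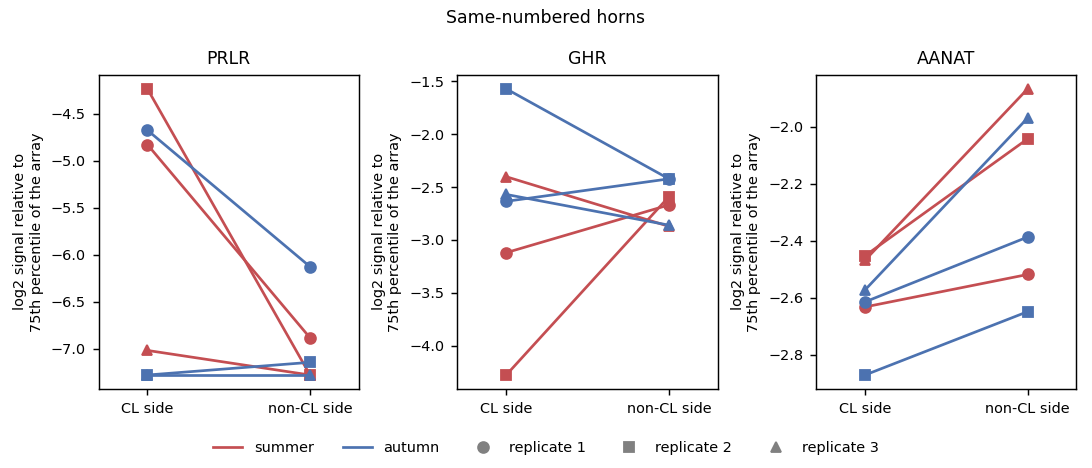
Log2 signal relative to the 75th percentile of the array in the CL-side and non-CL-side horns, with a line joining horns of the same replicate number in summer and in autumn. For AANAT all 6 lines were lower at the CL side, and for PRLR all 3 summer lines were higher there. PRLR passed the filter only through CL-side summer, and 2 of its 3 non-CL-side summer values were at the floor.

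LHCGR lay at or near background in all groups. Its processed signal was 21.6, 25.3 and 16.4 intensity units in CL-side summer, against −13.0, 46.2 and −8.68 in CL-side autumn. On the non-CL side it was 19.7, 18.2 and 12.9 in summer, against 74.3, 25.1 and 0.758 in autumn. A single array of each group was well above background, and the highest signal, in non-CL-side autumn replicate 1, was 1.73% of the 75th percentile. Values of this kind have no order among the groups, and no fold is given.

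Across the 7 comparisons, 0 of the 3 genes tested passed an adjusted p of 0.05 by limma, as did 0% of all probes in each comparison. At an unadjusted p of 0.05, GHR passed for season on the CL side, where 9.92% of 12381 probes did. That pass was lost with the replicate number as a block (unadjusted p of 0.0618), with slide as a block (0.135) and without CL-side summer replicate 2 (0.164). AANAT passed for side over both seasons, where 1.66% did. Its unadjusted p by limma was 0.0146 with the replicate number as a block. The pass was lost with normexp background correction (0.0606), and p ran from 0.0093 to 0.0902 with 1 array left out. On slide 1 alone, which held 1 array of each autumn group, the difference was −0.30. For side in summer 1.41% of probes passed, and nothing is read for PRLR there, since it was tested only because CL-side summer was well above background. No gene of the 3 passed for season on the non-CL side, side in autumn, season by side or season over horn means, where 1.12%, 1.86%, 1.88% and 3.98% of probes did. None of the 3 genes had groups that did not overlap. For season this held for 13% of probes on the CL side and 6.07% on the non-CL side, and for 10.6% over horn means. For side it held for 3.52% in summer and 7.9% in autumn.

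**Figure D4:**
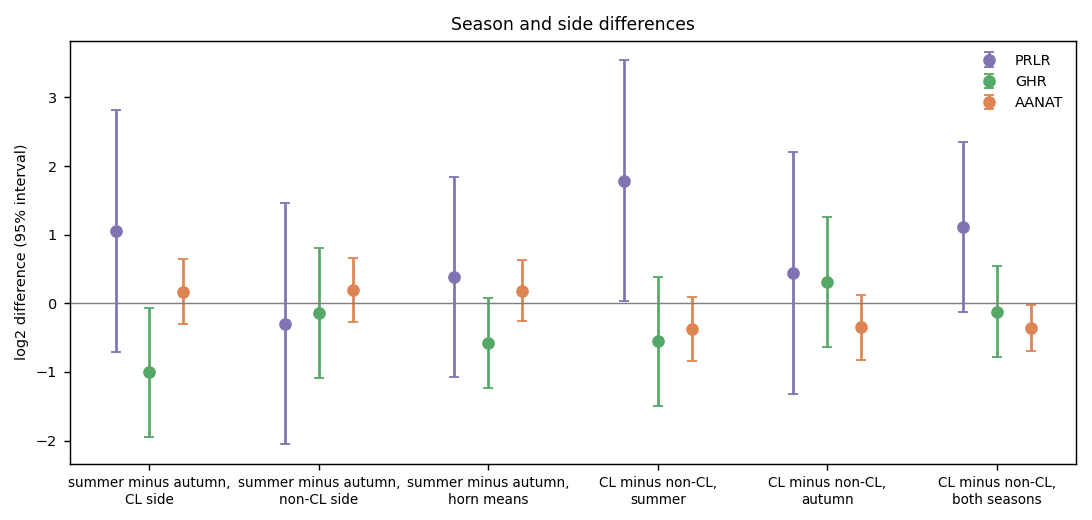
Log2 differences of PRLR, GHR and AANAT with 95% intervals, for the season differences (summer minus autumn) and the side differences (CL side minus non-CL side). Before any adjustment for the number of probes, the interval left out 0 for GHR by season on the CL side and for AANAT by side over both seasons. The summer side interval of PRLR also did, but PRLR passed the filter only through CL-side summer and 2 of its 3 non-CL-side summer values were at the floor.

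The ligands of these receptors are made mainly in the pituitary, and several had signal on the array. Of 12 probed genes for pituitary hormones and for other receptors of pituitary or releasing hormones, 4 were tested, namely PRL, GH1, LHB and POMC, and 3, FSHB, CGA and GNRHR, were well above background on no array. GH1, growth hormone, had a CL-side season difference of 0.90 ± 0.31, with an adjusted p of 0.496. Its log2 values were −5.61, −4.87 and −5.34 in CL-side summer, against −6.14, −5.92 and −6.47 in CL-side autumn. The groups did not overlap, which held for 13% of all probes in this comparison. GH1 passed an unadjusted p of 0.05, as 9.92% of all probes did, but not without CL-side summer replicate 2. PRL, prolactin, was well above background on 9 arrays and differed by −0.35 ± 0.70, and LHB, the beta subunit of luteinizing hormone, by 0.35 ± 0.42. The receptors FSHR, TSHR, GHRHR and PRLHR were well above background on 5, 1, 7 and 1 arrays and were not tested.

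Downstream of PRLR and GHR, none of the 7 genes of JAK-STAT signalling passed either threshold for season on the CL side. STAT5B, a main transducer of both receptors, differed by 0.02 ± 0.20, and PIK3R1, a regulatory subunit of PI3-kinase, by −0.50 ± 0.26. Of 5 SOCS genes, SOCS3 passed the unadjusted threshold, which 9.92% of all probes passed in this comparison, at 1.11 ± 0.42, with an adjusted p of 0.496. SOCS2, which growth hormone induces, differed by −0.56 ± 0.36 and CISH by 0.08 ± 0.17. Of 5 genes of the growth hormone response, IGF2 passed the same threshold at −1.08 ± 0.42. IGF1, which growth hormone induces in the liver, differed by −1.13 ± 0.59 and lay at the floor on CL-side summer replicate 2. The medians of these lists were 0.02, 0.08 and −0.30, and neither SOCS3 nor IGF2 passed without CL-side summer replicate 2.

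Around AANAT, 5 of the 7 probed genes of melatonin synthesis, reception and clearance were tested for season on the CL side, and none passed either threshold. ASMT, which makes melatonin from the product of AANAT, differed by 0.15 ± 0.29 and was well above background on 12 arrays. DDC, the decarboxylase that makes serotonin and dopamine, differed by 0.60 ± 0.42. The melatonin receptor gene MTNR1A was well above background on 4 arrays. CYP1B1, which hydroxylates melatonin and estradiol, differed by −1.89 ± 1.16, and SULT1A1, a sulfotransferase, by −0.38 ± 0.27. Of 5 clock genes none passed either threshold, and PER3 had the smallest p, at −0.46 ± 0.41.

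All 4 adrenergic receptors with a probe were well above background on 12 arrays. ADRA1B differed by 0.60 ± 0.24 between CL-side summer and autumn, with an unadjusted p of 0.0284 and an adjusted p of 0.496, and did not pass the unadjusted threshold without CL-side summer replicate 2. ADRB1, the main beta-adrenergic receptor of the heart, differed by 0.26 ± 0.50, ADRA2C by −0.22 ± 0.90 and ADRA2A by −0.10 ± 0.65. Of 5 tested genes of catecholamine synthesis and clearance, DBH, which makes noradrenaline, differed by 0.91 ± 0.32 and MAOB, a monoamine oxidase, by −1.17 ± 0.45, and these 2 passed the unadjusted threshold but not the adjusted one, against 9.92% of all probes. PNMT, which makes adrenaline, differed by −0.95 ± 0.59 and TH, the first enzyme of the pathway, by −0.33 ± 0.19. Among 12 tested genes of Gs and cyclic AMP signalling none passed either threshold, and PDE4B, a phosphodiesterase, had the smallest p at 0.61 ± 0.28.

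Among 5164 other symbols measured on all arrays, the profiles most like that of GHR over the 12 arrays were PAQR7 (Pearson r 0.971), PKLR (0.965), POGLUT2 (0.957), RAB34 (0.949) and MMP19 (0.944). Without CL-side summer replicate 2 their r was 0.918, 0.905, 0.896, 0.886 and 0.838, so that array added to the likeness. For AANAT they were DIABLO (0.870), GCN1 (0.866), HARS1 (0.864), ARPC1B (0.833) and PNP (0.826). These values describe 12 arrays that share groups, horns and slides.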

How the data were processed

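Endometrial RNA of 12 samples was labelled with Cy3 and hybridised to 1-colour Agilent arrays, per the labels' protocols. Spot intensity had been read by the authors with Feature Extraction 9.5.1.1, per the file headers, background-subtracted and not scaled between arrays (version 9.5 per the submitters' processing notes). The authors' deposited log2 table, of unstated scale and centring, served as an alternative. It followed the scanner values at r of 0.976 to 0.994 in the same direction and was not centred per probe. Its column medians ran from −2.79 to −2.61. Its column 75th percentiles ran from 0.005 to 0.012, so each column was centred close to its 75th percentile.

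Signals were divided by the 75th percentile of each array and put on the log2 scale with a floor of −7.28. The floor was added to the planned design since a signal that is not positive has no log, and it held 2.06% of kept values. Control spots were left out, and 466 values flagged as outliers were treated as missing. Of 15208 probes, 12403 stayed in, each well above background throughout 1 or more groups. limma 3.58.1 in R 4.3.3 fitted 4 group means (8 residual degrees of freedom) with p-values adjusted (Benjamini-Hochberg, threshold 0.05) over those probes. Season over both sides used 6 means of same-numbered horns (4 residual degrees of freedom). All tests were two-sided, and the fit was tested on simulated data.

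Symbols came from the files and the RefSeq table of ARS-UCD2.0 (6920 probes named, 52 by locus only, 8236 unnamed). No coordinates are given, since no source used here names the assembly behind the array. Named genes were the 4 genes, the 5 profiles most like each of those measured on all arrays, and up to 4 genes per list with the smallest p for season on the CL side. Receptors at background, CISH, STAT5B and MTNR1A were named for their role. Genes and lists were chosen with earlier results of these data known. Same-numbered horns of a season deviated together (r of 0.138 to 0.501 in all 6 pairs). So did same-numbered samples across seasons (0.110 to 0.345). The numbers were therefore taken to pair the samples in the pairwise values, the horn means and the replicate block. The main fit of 4 group means held no term for these pairs, so its side and season by side differences were unpaired. The labels do not say what a number stands for. The number of arrays limits the precision. The probe sequences of LHCGR and AANAT are not reported here.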

Additional observations from a re-analysis of the deposited data

How the results depend on the processing

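No season or side difference of PRLR, GHR or AANAT passed an adjusted p of 0.05 under any alternative run. The replicate block, with its lowest adjusted p for these genes at 0.393 (GHR, season on the CL side), changed no call at the adjusted threshold. On slide 1 alone PRLR differed by −0.69 for season on the CL side and −0.85 over horn means, and GHR by −0.21 for side in autumn. With slide as a block PRLR differed by −0.18 for season on the CL side and −0.85 over horn means. The other GHR probes turned the direction of some values. For season over horn means AF036294 gave 0.38, AF036296 0.20 and AF326349 0.035. AF036294 gave 0.32 for season on the CL side, 0.13 for side in summer and 0.19 for side over both seasons, where AF326349 gave 0.10. For season on the non-CL side AF036294 gave 0.44, AF036296 0.44 and AF326349 0.23. Leaving out 1 array at a time moved PRLR between −0.13 and 0.88 for season over horn means, −0.51 and 0.064 for season on the non-CL side, and −0.43 and 0.87 for side in autumn. It moved GHR between −0.034 and 0.50 for side in autumn and −0.34 and 0.13 for side over both seasons, and AANAT between −0.21 and 0.13 for season by side. The cause of these turns was not tested. Over all probes, the count of calls was 0 under every alternative that kept the 12 arrays, and 1 for season on the non-CL side on slide 1 alone. Leaving out 1 array gave 0 to 7 for season on the CL side, 0 to 6 for side in autumn, and 0 to 1 for side in summer, side over both seasons and season by side. The 7 and the 6 came without CL-side autumn replicate 3, and 4 and 2 for season on the CL side without CL-side summer replicates 3 and 1. The single calls came without CL-side summer replicate 3. PRLR and LHCGR lie so close to background that their order among the dim arrays cannot be read.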

Other observations

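In 3 of the 4 adrenergic receptors replicate 1 of every group lay below all other arrays. ADRA2C, an alpha-2 receptor that lowers cyclic AMP, had log2 values of −3.71, −2.73, −3.39 and −2.84 in replicate 1 of CL-side summer, CL-side autumn, non-CL-side summer and non-CL-side autumn. Its other 8 arrays ran from −1.66 to −0.41. ADRA2A had −4.94, −4.31, −5.08 and −4.07 in the same 4 arrays and −3.41 to −2.51 in the others, and ADRB1 had −5.57, −5.77, −5.97 and −5.40 and −5.35 to −3.76 in the others. The fourth receptor, ADRA1B, overlapped. Among all probes with values on every array, 5.39% had replicate 1 wholly above or below the other 8 arrays. All replicate 1 arrays lay on slide 1, as did replicates 2 and 3 of both summer groups. What the numbers stand for is not in the labels, and no explanation was tested.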
